A study of Mus musculus with 9 samples.

Results

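Kinesins are the motor proteins that use ATP to walk along microtubules or to take them apart at their ends. The family was measured here on 9 Affymetrix mouse arrays of BC3H1 cells, a mouse brain tumour line with muscle-like properties, and of a rapamycin-resistant line derived from it. Members were all probe sets whose only gene symbol in the platform annotation was Kif followed by a number (with or without a, b or c) or Kifc followed by a digit. That gave 103 of 45101 probe sets, for 40 of 18193 genes that had a probe set with 1 symbol. For each gene the brightest probe set on average was used, and 31 of the 40 genes were bright enough to be tested among 12715 genes. By known roles, 12 members were listed as mitotic kinesins (10 tested), 17 as transport kinesins (16 tested) and 11 as others (5 tested).

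The study compared 3 groups of 3 arrays each. Rapamycin-sensitive BC3H1 cells received the solvent DMSO for 24 h or 100 nM rapamycin, an inhibitor of the kinase complex mTORC1, for 24 h. The resistant line, RR1, was made from BC3H1 by culture in 1 uM rapamycin for 6 months and was kept in 1 uM rapamycin. A serum-containing medium is stated for the sensitive cells. A resistant group kept off the drug was not analysed here. There was 1 resistant line, so resistance, the months in culture, the drug and other traits of that line cannot be told apart. Separate cultures are not named in the labels for the replicate arrays. The p-values therefore reflect only how these arrays vary, which may be technical. In such bulk RNA, fewer cells in a given state and less RNA per cell cannot be told apart.

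In dividing cells a set of kinesins builds the spindle, moves chromosomes and completes cell division, and most of these genes are switched on late in the cell cycle. Transport kinesins carry vesicles, mitochondria, mRNA and cilium components in both dividing and resting cells. Rapamycin slows growth and entry into the cell cycle in many cell types. The comparisons ask how the motor genes of sensitive cells change with the drug, and how they stand in a line that lives in the drug.

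The third DMSO array was unlike the rest: its median signal was 66.0 against 33.3 to 44.2 on the other 8. For kinesin genes, where leaving it out changed a call or moved a called value by over 1.5 times, both values are given. Values of partner genes are given with all arrays only. The 3-prime control probe set minus the 5-prime one on the log2 scale is a measure of RNA quality. For Actb it was 0.17 ± 0.008 (SD, n = 3) in DMSO cells, 0.19 ± 0.04 in sensitive rapamycin cells and 0.33 ± 0.02 in resistant cells. For Gapdh it was -0.31 ± 0.02, -0.36 ± 0.04 and -0.29 ± 0.04 in the same order, so this control did not show the shift of Actb in resistant cells. The part of RNA quality in the results was not tested. Summed signals of 9 myogenic markers were 23019 to 31012 in DMSO cells, 28106 to 28400 in sensitive rapamycin cells and 8029 to 9841 in resistant cells. Actg2 (a mean of 21.6) and Chrna1 (15.1) were near background in the resistant cells, and Myod1 was below the filter in the whole series. Of 8 tested myogenic markers 6 were called lower and 2 higher in resistant against DMSO cells, against 25.8% and 25.9% of all genes. The 2 higher were Myog, from a mean of 6.50 to 98.9, and Ckm, from 26.5 to 77.4. Of the neuronal markers 3 of 5 were below the filter, as were 1 of 5 glial, 2 of 3 leukocyte, 2 of 3 endothelial and 1 of 3 epithelial markers on the array. The summed neuronal signal ran from 101 to 367 in DMSO cells, from 112 to 131 in sensitive rapamycin cells and from 82.0 to 134 in resistant cells. The summed glial signal ran from 157 to 452, from 222 to 259 and from 61.7 to 103 in the same order; the part of these markers in the results was not tested.

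In sensitive cells all tested mitotic kinesins fell after 24 h of rapamycin, to between 17.6% and 29.0% of the DMSO signal. All 10 were called lower at a Benjamini-Hochberg adjusted p under 0.05 in limma, where 15.2% of all tested genes were called lower. All 10 also fell at least 2-fold on the log2(signal + 16) scale, against 3.96% of all genes. The median log2 change of the 10 was -1.83, and that of all tested genes was 0.03. No transport kinesin was called lower and 4 of 16 were called higher, where 20.4% of all genes were called higher, so that share was near the background. The transport median was 0.23. The smallest mitotic fall was -1.60. The lowest transport change was that of Kif17, at -0.72 and not called, but it moved to -1.41 without the first DMSO array and to 0.02 without the third.

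**Figure D1:**
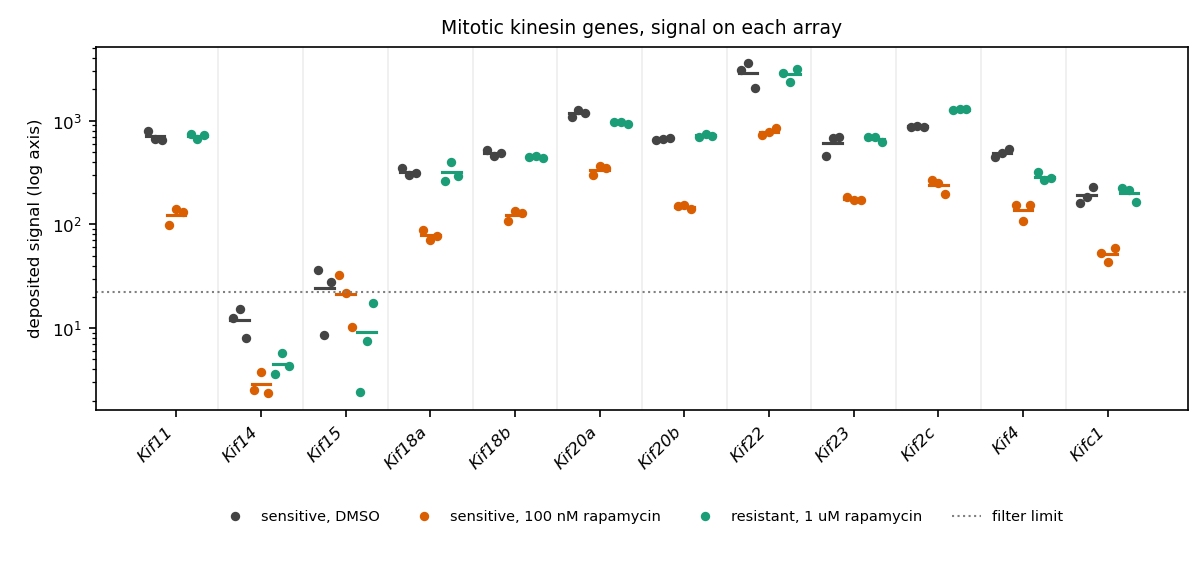
Deposited signal of the 12 mitotic kinesin genes on each array (log axis), with a bar at each group mean of 3 arrays. For the 10 genes above the dotted filter limit, all sensitive rapamycin arrays lie below all DMSO and all resistant arrays. Of all tested genes 43.2% had no overlap between sensitive rapamycin and DMSO arrays, and 65.4% between sensitive rapamycin and resistant arrays.

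Kif11 (Eg5), which pushes the spindle poles apart by sliding antiparallel microtubules, showed the largest fall. Its signals were 802, 669 and 647 on the DMSO arrays and 98.9, 142 and 132 on the sensitive rapamycin arrays. The groups were far apart, and the log2 change was -2.37 ± 0.13 (SE, adjusted p = 1.12e-10). Kif15, which can stand in for Kif11 at the spindle, was not tested: its signals ran from 2.40 to 36.2 over the 9 arrays, near background and with overlapping groups for sensitive cells.

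Chromosome positioning depends on several of these motors. Kif22 (Kid) binds chromosome arms and pushes them towards the spindle equator; it had signals of 3102, 3574 and 2058 in DMSO cells and 731, 772 and 852 in rapamycin. Its lowest DMSO value came from the array that stands apart, and was still above every rapamycin array. The change was -1.83 ± 0.15 (adjusted p = 3.62e-08), and its 2 other probe sets gave -2.61 and -2.09. The chosen Kif22 probe set is of the class that can bind related sequences, but all 3 moved alike. Kif18a, a kinesin-8 that damps chromosome oscillations, went from 352, 297 and 313 to 88.1, 70.6 and 77.7, a change of -1.83 ± 0.16 (adjusted p = 1.12e-07). Its relative Kif18b, which limits the length of astral microtubules, went from 519.9, 456 and 485 to 108, 134 and 130.2, a change of -1.85 ± 0.12 (adjusted p = 1.21e-09). Both kinesin-8 genes therefore fell by nearly the same amount.

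Kif2c (MCAK) takes microtubules apart at the centromere and so frees wrongly attached chromosomes. Its signals were 870.0, 895 and 876 in DMSO cells and 267, 249 and 198 in rapamycin, with no overlap and a change of -1.83 ± 0.10 (adjusted p = 1.19e-10). Kif4, a chromosome-bound kinesin that also sets the length of the central spindle with Prc1, had 447, 492 and 532 against 153, 107 and 153, a change of -1.73 ± 0.14 (adjusted p = 4.27e-08). Kifc1 (HSET), a minus-end motor that focuses spindle poles, had 160.0, 186 and 227 against 53.6, 43.1 and 58.6, and changed by -1.60 ± 0.20 (adjusted p = 5.34e-06), on a scale that understates the change of dim genes. Kifc1 has a close copy, Kifc5b, and its probe set is of the class shared between transcripts, so the 2 genes cannot be told apart by it.

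The kinesins of late mitosis and cell separation fell as well. Kif20b had 649.6, 664 and 677 in DMSO cells and 149, 155 and 139.6 in rapamycin, with groups far apart and a change of -2.05 ± 0.09 (adjusted p = 1.76e-11). Kif20a (MKlp2), which brings the Aurora B complex to the midzone, had 1092, 1265 and 1176 against 297, 363 and 349 (-1.76 ± 0.09, adjusted p = 7.5e-11). Kif23 (MKlp1) forms the centralspindlin complex with Racgap1 and had 455, 680.1 and 692 against 185, 174 and 171 (-1.67 ± 0.13, adjusted p = 2.79e-08). Kif14, a partner of citron kinase in cytokinesis, was below the filter with signals of 12.6, 15.4 and 7.98 in DMSO cells, 2.51, 3.82 and 2.37 in rapamycin and 3.60, 5.74 and 4.28 in the resistant cells. The Kif14 values were lower in both drug groups, but all lay near background and give no fold.

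Further probe sets gave the same picture. Of the mitotic genes 5 had other probe sets above the filter, 9 in all, and 9 of 9 changed in the direction of the probe set used, 8 of them also called. The exception to a call was a dim Kif2c probe set with a mean signal of 44.0, which changed by -0.75 (adjusted p = 0.307). All 10 tested mitotic kinesins stayed above the filter limit on every array, the lowest value being 43.1, so none of them entered the test through one group alone. All 10 were called lower under each of the 18 alternative settings, the set without the third DMSO array included.

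Because the mitotic kinesins moved together, their promoters were read from RefSeq (assembly GRCm38.p6), in windows of 250 bases before to 50 after the annotated start. The letters searched, on both strands, were TTTGAA or TTCGAA (the cell cycle homology region, CHR, bound by the DREAM and MuvB complexes), CCAAT (the box bound by NF-Y) and TTTCCCGC, TTTGGCGC or TTTCGCGC (E2F elements). A window was found for 32 of the 40 genes. None was found for the mitotic Kif20a, the transport genes Kif5a, Kif5b, Kif13b, Kif21b, Kifc2 and Kifc3, or Kif28. The printed stretches run from 130 bases before the start to 25 from it on, 5′ to 3′ on the gene's strand, with CHR, CCAAT and E2F matches in capitals (ATTGG and TTCAAA are CCAAT and CHR on the other strand). The first 4 are mitotic genes with a CHR match close to the start, Kif2c and Kif4 are the mitotic genes that differed most in resistant cells, and Kif3a and Kif1c are transport genes for contrast, the first raised by rapamycin and the second not called. They lie at chr19:37376252-37376406 (plus strand, Kif11), chr7:127042396-127042550 (minus, Kif22), chr11:102925100-102925254 (minus, Kif18b), chr17:33890609-33890763 (minus, Kifc1), chr4:117178748-117178902 (minus, Kif2c), chrX:100625935-100626089 (plus, Kif4), chr11:53567239-53567393 (plus, Kif3a) and chr11:70700418-70700572 (plus, Kif1c).
Kif11: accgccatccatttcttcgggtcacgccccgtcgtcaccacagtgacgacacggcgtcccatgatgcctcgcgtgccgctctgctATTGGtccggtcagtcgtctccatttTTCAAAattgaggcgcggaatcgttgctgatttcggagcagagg
Kif22: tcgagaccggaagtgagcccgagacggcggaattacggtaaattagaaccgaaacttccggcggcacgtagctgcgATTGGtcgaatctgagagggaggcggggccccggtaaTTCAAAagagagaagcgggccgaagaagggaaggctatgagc
Kif18b: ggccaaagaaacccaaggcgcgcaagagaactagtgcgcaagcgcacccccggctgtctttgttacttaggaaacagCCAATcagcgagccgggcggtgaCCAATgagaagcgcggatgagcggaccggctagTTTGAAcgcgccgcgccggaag
Kifc1: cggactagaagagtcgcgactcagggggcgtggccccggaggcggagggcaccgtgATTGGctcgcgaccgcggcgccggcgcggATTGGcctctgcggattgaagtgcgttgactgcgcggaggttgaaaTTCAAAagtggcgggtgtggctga
Kif2c: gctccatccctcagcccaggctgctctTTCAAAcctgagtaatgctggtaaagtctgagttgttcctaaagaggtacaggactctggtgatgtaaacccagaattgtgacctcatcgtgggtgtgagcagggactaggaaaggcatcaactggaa
Kif4: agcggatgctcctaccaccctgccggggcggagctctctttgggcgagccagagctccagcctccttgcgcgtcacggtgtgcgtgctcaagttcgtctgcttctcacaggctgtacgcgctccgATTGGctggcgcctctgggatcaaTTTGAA
Kif3a: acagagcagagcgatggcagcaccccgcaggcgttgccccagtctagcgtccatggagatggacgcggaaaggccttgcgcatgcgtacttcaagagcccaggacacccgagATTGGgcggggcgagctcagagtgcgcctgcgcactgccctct
Kif1c: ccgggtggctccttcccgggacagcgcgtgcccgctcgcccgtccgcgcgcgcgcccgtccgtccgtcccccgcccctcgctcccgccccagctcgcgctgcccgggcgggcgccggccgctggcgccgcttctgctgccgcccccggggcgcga

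Of the 11 mitotic kinesins with a window, 10 held a CHR match, the exception being Kif18a, which held an E2F match 10 bases before the start. The 11 include Kif14 and Kif15, whose expression was too dim to be tested, and leave out Kif20a, which was tested. Kif14 held CHR and CCAAT matches. Kif15 held CHR and E2F matches, with a CHR match 19 bases before the start. By comparison 21.7% of all 27025 genes with a window of this length held a CHR match, as did 19.2% of the 32851 windows. Of the 11 transport kinesins with a window 1 did, Kif1a, in 1 of its 2 windows. CCAAT was in 7 of 11 mitotic and 3 of 11 transport genes, and in 5 of 10 other kinesins, against 41.1% of all genes. Both motifs together were in 7 of 11 mitotic genes and in no transport gene, against 8.61% of all genes. Of the other kinesins 3 of 10 held both, namely Kif24, Kif26b and Kif27. In Kif26b, which was called higher with rapamycin in sensitive cells, the CHR match began 9 bases before the start. An E2F match was in Kif15 and Kif18a and in no transport gene, against 2.12% of all genes. In 8 of the 11 mitotic genes a CHR match began within 20 bases of the start on either side, a limit chosen after the matches were seen, against 2.80% of all genes. The matches were not particular to the motors. Of 17 spindle and midzone partner genes with a window, 10 held a CHR match and 10 held both CHR and CCAAT. In 7 of these 17 a CHR match began within 20 bases of the start. In Kif11 the CHR match began 19 bases before the start, in Kif22 17 bases before it, and in Kif18b 3 bases after it. In Kif2c it began 103 bases before the start with no CCAAT match in the window. These are matches of letters and not measured binding, and a window without one says nothing of the factor.

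**Figure D2:**
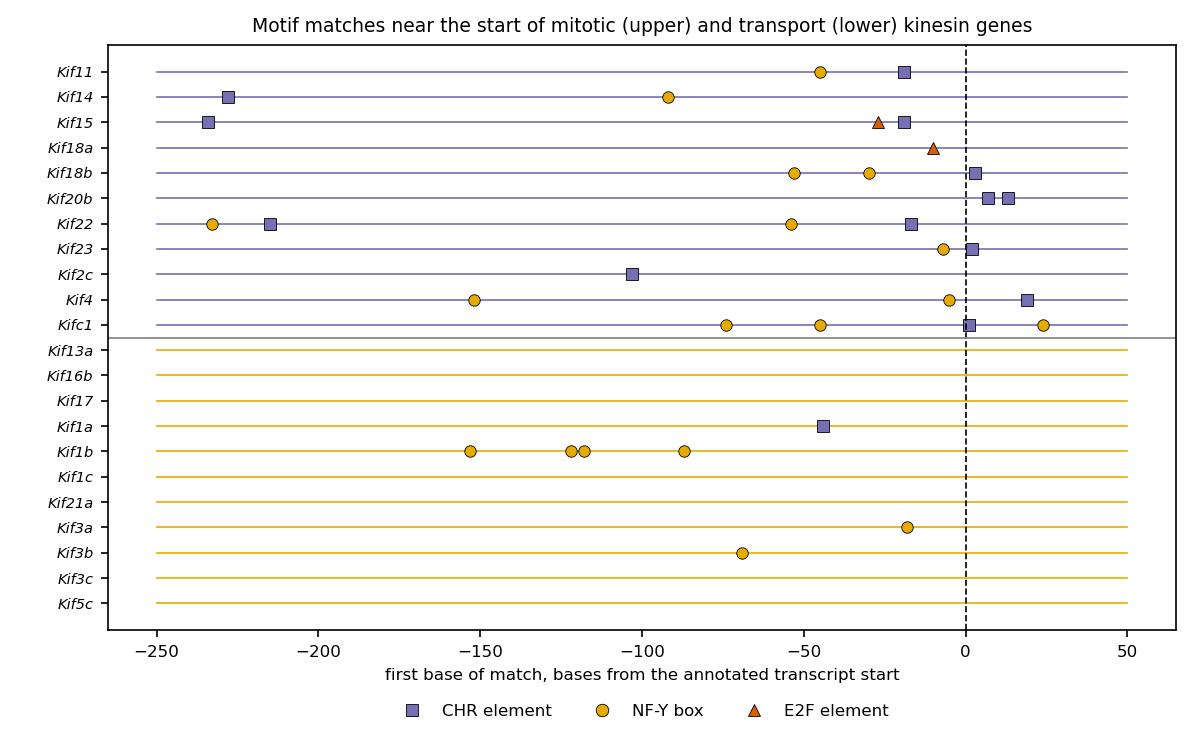
Places of CHR, NF-Y (CCAAT) and E2F matches in windows of 250 bases before to 50 after the annotated start (dashed line) of 11 mitotic and 11 transport kinesin genes, in bases from the start. CHR matches (squares) lie within 20 bases of the start in 8 mitotic genes and in none of the transport genes. They also do so in 7 of 17 spindle and midzone partner genes, which are not drawn, and in 2.80% of all genes. Kif1b and Kif1a have 2 windows each, drawn on 1 line, each counted from its own start.

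In the same sensitive cells 4 transport kinesins rose with rapamycin. Kif3a, the motor subunit of kinesin-2 that builds cilia together with Kif3b and Kifap3, had 353, 339 and 386 in DMSO cells and 641, 616 and 618 in rapamycin. The groups did not overlap (43.2% of all genes did not), and the change was 0.77 ± 0.09 (adjusted p = 4.34e-06), with 2 of its 3 other probe sets called higher. Kifap3, the adaptor subunit of the same trimer, named after its values were seen, also rose (0.68 ± 0.08, adjusted p = 1.72e-06). Kif3b changed by 0.32 ± 0.22 (adjusted p = 0.282), with signals of 228, 178 and 142 against 229.6, 162 and 317; the third rapamycin array was the high one. Kif3b was called when its probe sets were averaged (0.43, adjusted p = 0.0464). Kif3c, a kinesin-2 of neurons, went from 309, 289.8 and 369 to 389.6, 425 and 408 (0.33 ± 0.12, adjusted p = 0.0345). The Kif3c call was the weakest of the 4 and was lost in 10 of 18 settings, with an adjusted p of 0.0509 to 0.936 there, among them those without the first (0.0911) or the second (0.133) DMSO array and without the second (0.104) or the third (0.0798) sensitive rapamycin array.

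Kif1b, which carries mitochondria and synaptic vesicle precursors, showed the largest rise of the family. Its signals were 604, 592 and 739 in DMSO cells and 1298, 1226 and 971 in rapamycin, with a change of 0.83 ± 0.11 (adjusted p = 1.48e-05). The 7 Kif1b probe sets were not alike. Of the other 6, 2 were called higher (0.88 and 0.61), and the rest lay between -0.27 and 0.48 with none called. Kifc3, a minus-end motor, went from 246, 279.7 and 309 to 426, 455 and 418 (0.61 ± 0.13, adjusted p = 0.00145), above every DMSO array.

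Kif5b and Kif1c were among the transport kinesins not called in sensitive cells. Kif5b, the widely expressed heavy chain of conventional kinesin, had 1650.1, 1629 and 1485 against 1605, 1535 and 1371, a change of -0.08 with a 95% interval of -0.26 to 0.10 (adjusted p = 0.507). Its dimmest probe set above the filter, with a mean of 47.5, was called higher (0.93, adjusted p = 0.0289), while the other 4 were not. Kif1c, a carrier linked to the Golgi and to podosomes, had 718, 739.6 and 688 against 748, 734 and 767, with a change of 0.07 and an interval of -0.10 to 0.24 (adjusted p = 0.567). The intervals of Kif5b and Kif1c leave out changes as large as those of any mitotic kinesin. Kif13b (0.40, adjusted p = 0.17) was called higher without the third DMSO array (0.62, adjusted p = 0.0185), which raised the transport count to 5. Kif17 (-0.72, adjusted p = 0.329) had DMSO signals of 17.5, 66.1 and 225, so that its change turned on single arrays. It was called lower without the first DMSO array (-1.41, adjusted p = 0.0225) and was 0.02 without the third (adjusted p = 0.98).

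Beside Kif3c, which was called higher, Kif1a, Kif5a and Kif5c are known from neurons. Kif1a and Kif5a were dim, and Kif5c was not called with all arrays. Kif1a was below the filter, with signals of 4.26 to 43.4 over the 9 arrays. Kif5a (-0.14, adjusted p = 0.791) had signals of 28.0 to 93.8, and Kif5c (0.23 ± 0.10) had 437, 498 and 428 against 581, 548 and 476 (adjusted p = 0.0919). Without the third sensitive rapamycin array Kif5c was called (0.31, adjusted p = 0.0381). Kif13a (0.24), Kif16b (0.17), Kif21a (0.18), Kif21b (-0.35) and Kifc2 (0.79) were not called, with an adjusted p between 0.117 and 0.397.

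**Figure D3:**
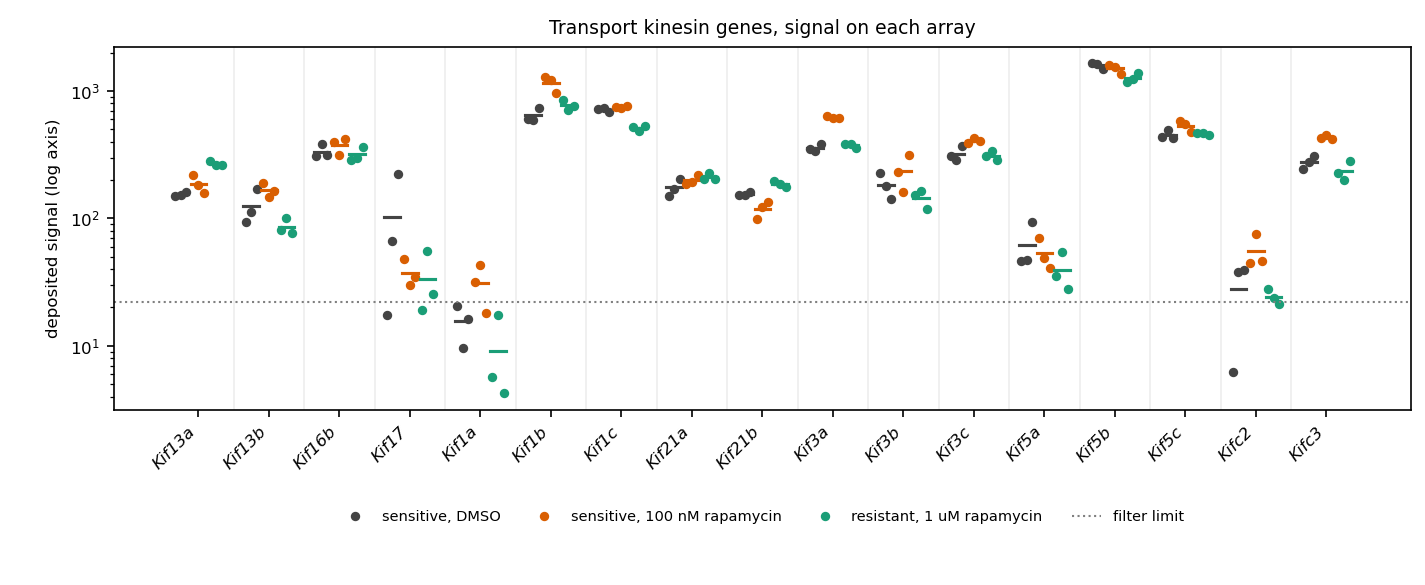
Deposited signal of the 17 transport kinesin genes on each array (log axis), with a bar at each group mean of 3 arrays and the filter limit dotted. Kif3a, Kif1b, Kif3c and Kifc3 are higher on the sensitive rapamycin arrays than on the DMSO arrays, while Kif5b and Kif1c overlap there. The dim Kifc2 also lies above the DMSO arrays and Kif21b below them, both without a call. In all, 6 of 16 tested transport genes had no overlap there, against 43.2% of all tested genes.

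Of the 5 tested kinesins outside both lists 2 fell and 1 rose in sensitive cells, where 15.2% of all genes fell and 20.4% rose. Kif24, which acts at centrioles and restrains cilium growth, had 66.9, 66.6 and 186 against 33.6, 46.4 and 22.7. The third DMSO array was the high one, and the change was -1.18 ± 0.34 (adjusted p = 0.0121). Without that array it was -0.75 (adjusted p = 0.0492), under 2-fold, and the call was lost without the third sensitive rapamycin array (adjusted p = 0.0553). Kif2a, a relative of Kif2c that takes microtubules apart in spindles and in neurons, had 671, 765 and 709 against 582, 645 and 540.1. The fall was small (-0.27 ± 0.10, adjusted p = 0.0428), and it was lost in 8 of 18 settings (adjusted p = 0.0513 to 0.498). These included leaving out the second (0.147) or the third (0.0605) DMSO array, the first (0.0894) or the third (0.167) sensitive rapamycin array, or the second resistant array (0.0559). The Kif2a change without the third DMSO array was -0.28. Kif26b had 154, 184 and 261 against 277, 318 and 257, with overlapping groups. Its rise (0.50 ± 0.16, adjusted p = 0.0239) was lost without the first (0.12) or second (0.0689) DMSO array and without the first (0.0533) or second (0.105) sensitive rapamycin array. Kif7, which regulates Hedgehog signalling at the cilium tip, was not called (-0.09, adjusted p = 0.824), nor was Kif6 (0.09, adjusted p = 0.915). Kif12, Kif26a, Kif27, Kif28, Kif2b and Kif9 were below the filter, and no array showed more than 53.9 for any of them.

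In the resistant line the mitotic kinesins stood close to the DMSO cells, although the line was in the drug. Of the 10 tested, 7 were not called against DMSO cells, 1 was called higher and 2 lower, where 25.9% of all genes were called higher and 25.8% lower. Their median log2 change was -0.01, against -0.07 for all genes (0.09 and 0.03 after centring each array on its 75th percentile). Resistant signals ran from 58.9% of the DMSO mean for Kif4 to 145% for Kif2c. Kif11 had 739, 663 and 725 in the resistant cells, overlapping the DMSO arrays, with a change of 0.01 and a 95% interval of -0.26 to 0.28 (adjusted p = 0.955). The signals of Kif20b were 703, 745 and 713, above every DMSO array, with a change of 0.12 and an interval of -0.08 to 0.31 (adjusted p = 0.325). For the 7 genes without a call the changes lay between -0.12 and 0.16.

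The mitotic genes that differed are a depolymerase and 2 motors of the midzone and chromosomes. Kif2c rose to 1258, 1290.2 and 1288 in the resistant cells, a change of 0.53 ± 0.10 (adjusted p = 0.000181). Of its 3 other probe sets 1 was called higher (0.31, adjusted p = 0.0317), the others gave 0.05 and 0.15, and averaging all its probe sets left Kif2c without a call (0.26, adjusted p = 0.159). The Kif2c probe set used is, like that of Kif22, of the class that can bind related sequences. Kif4 fell to 319, 269 and 279 (-0.73 ± 0.14, adjusted p = 0.000325), below every DMSO array (58.6% of all genes had no overlap here), and kept its call in all 18 settings. Kif4 has only 1 probe set. Kif20a fell to 965, 979 and 932 (-0.29 ± 0.09, adjusted p = 0.0122), but not with arrays centred on the 75th percentile (-0.19, adjusted p = 0.11) or without the second DMSO array (-0.24, adjusted p = 0.0649). Kif18a, Kif18b, Kif22, Kif23 and Kifc1 had overlapping values in the 2 groups. Kif22 was at -0.03 with all arrays and at -0.26 without the third DMSO array (adjusted p = 0.0526), not called in either case.

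Of the 16 transport kinesins 1 was called higher and 2 lower in the resistant cells against DMSO cells, both below the shares of all genes (25.9% and 25.8%), and the list median was -0.05 (0.04 with arrays centred on the 75th percentile, 0.01 with quantile normalization). Kif13a, a carrier of endosomal cargo, had 284, 264 and 263 against 149, 152 and 162 in DMSO cells. The groups were well apart (0.75 ± 0.15, adjusted p = 0.000331), but none of its 4 other probe sets was called, and their average with it gave 0.14 (adjusted p = 0.654). Kif1c fell to 518, 483 and 527 (-0.48 ± 0.08, adjusted p = 7.65e-05), and Kif5b to 1170.0, 1238 and 1372 (-0.33 ± 0.08, adjusted p = 0.00274). For Kif5b, 3 of 5 other probe sets were also called lower. Without the third DMSO array 3 transport genes were called higher, as Kif1b (0.36, adjusted p = 0.0123) and Kif21a (0.37, adjusted p = 0.0432) joined Kif13a. With all arrays Kif1b was at 0.26 (adjusted p = 0.0617) and Kif21a at 0.26 (adjusted p = 0.174). Without the first DMSO array 4 were called lower, as Kif13b (-0.60, adjusted p = 0.0367) and Kif17 (-1.58, adjusted p = 0.00745) joined. Without the third DMSO array these were -0.22 (adjusted p = 0.368) and -0.15 (adjusted p = 0.8), against -0.44 and -0.89 with all arrays.

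Kif7 was the only kinesin called with at least a 2-fold difference between resistant and DMSO cells. Its signals were 230.2, 171 and 205 against 66.2, 80.3 and 124, and 56.5, 113 and 82.2 in sensitive rapamycin cells. All resistant arrays lay above all sensitive ones (1.07 ± 0.25, adjusted p = 0.00158 against DMSO cells, and 1.15 ± 0.25, adjusted p = 0.000641 against rapamycin cells). Between resistant and DMSO cells 5.45% of all genes were called at least 2-fold higher and 9.99% at least 2-fold lower. Kif7 had 1 probe set, and both calls were kept in all 18 settings. Kif26b, with 247, 220.4 and 238 in the resistant cells, was not called against DMSO cells (0.25, adjusted p = 0.22), but was without the third DMSO array (0.44, adjusted p = 0.0132). Kif2a was not called against DMSO cells by the probe set used (-0.03, adjusted p = 0.818). Its other probe sets gave 0.71 (adjusted p = 0.00575), 0.37 (0.0106), -0.15 (0.333) and -0.22 (0.692).

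**Figure D4:**
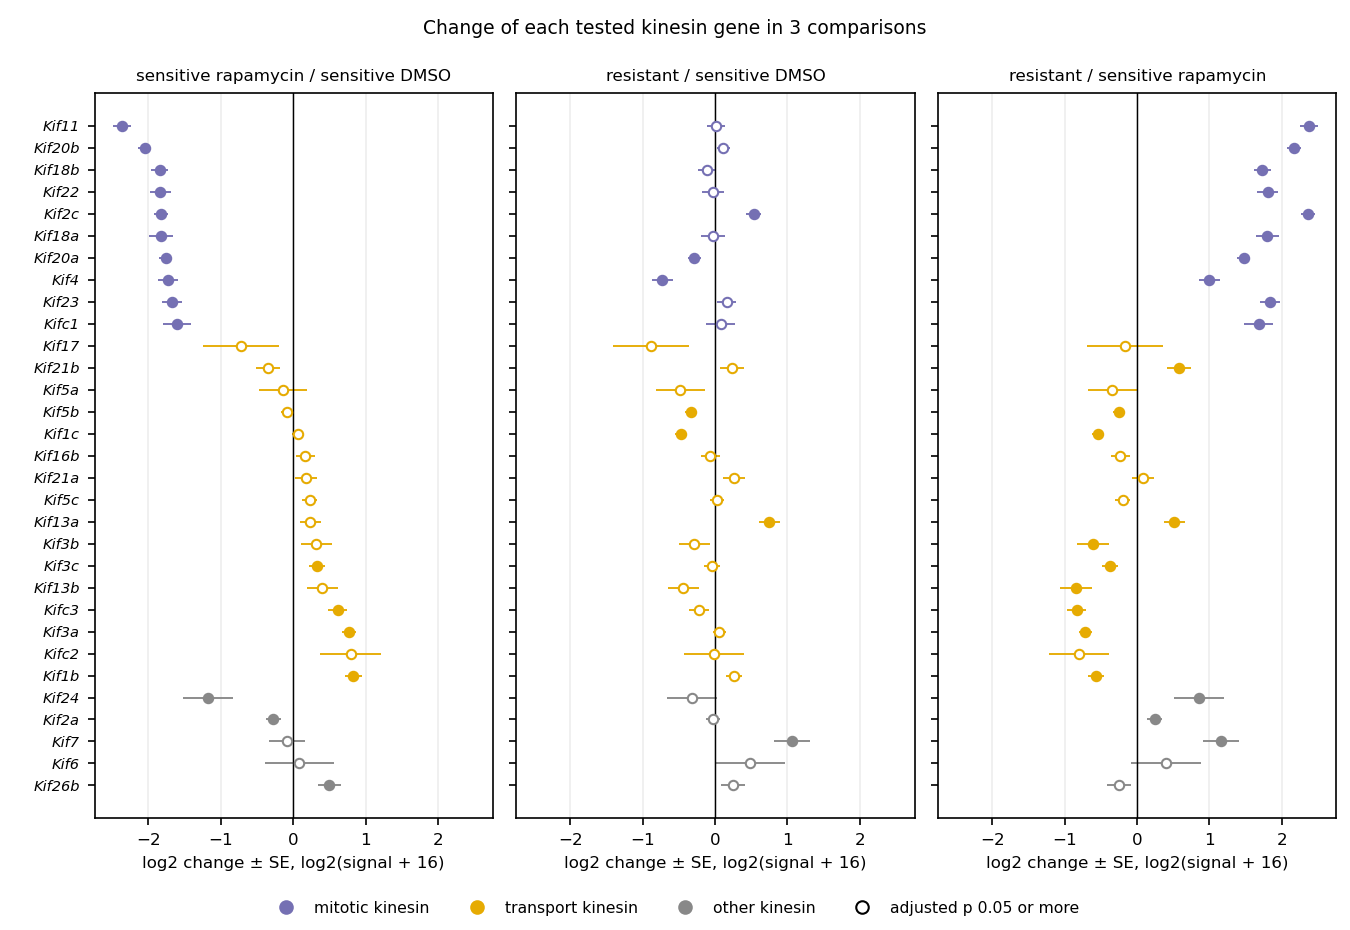
Log2 change ± SE of the 31 tested kinesin genes in 3 comparisons (3 arrays per group); filled points passed an adjusted p of 0.05. Mitotic genes lie between -2.37 and -1.60 in the first panel, around 0 in the second and between 1.00 and 2.38 in the third; the panels share groups, so they are not independent.

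The resistant cells and the sensitive rapamycin cells differ in line, in dose and in length of exposure. The resistant cells had more of every tested mitotic kinesin and less of most called transport kinesins. All 10 mitotic genes were called higher, against 26.4% of all genes, and none overlapped with the sensitive rapamycin arrays, against 65.4%. Of the 10, 9 were higher at least 2-fold, against 10.3%. Kif4 was just under that limit, with 1.00 ± 0.14 (adjusted p = 9.03e-06). The median change was 1.80, from 1.00 for Kif4 to 2.38 ± 0.13 for Kif11 (adjusted p = 2.22e-11) and 2.36 ± 0.10 for Kif2c (adjusted p = 9.2e-13). These comparisons share the sensitive rapamycin arrays with the first one, so the rise here and the fall there are not independent results. The median of all genes was -0.08 and moved to 0.05 with arrays centred on the 75th percentile, a shift that does not reach the size of the mitotic changes.

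Of the transport kinesins 8 of 16 were called lower and 2 higher, against 30.1% and 26.4% of all genes. Kif3a had 381, 383 and 359 in the resistant cells (-0.72 ± 0.09, adjusted p = 3.12e-06) and stood at its DMSO level, where the difference had been 0.06 (adjusted p = 0.638). Kifc3, with 227, 201 and 283, differed by -0.84 ± 0.13 (adjusted p = 2.88e-05). Kif1b, with 848, 710.1 and 764, differed by -0.57 ± 0.11 (adjusted p = 0.000259), but averaging its probe sets ended the call (-0.21, adjusted p = 0.133). Of its other probe sets, those at -0.45 (adjusted p = 0.00253) and -0.48 (0.0292) were called lower, 1 was called higher (0.54), and the rest were not called. Kif13b, with 81.5, 100.0 and 76.5 against 188, 148 and 164, differed by -0.84 ± 0.22 (adjusted p = 0.00286). Kif1c (-0.54 ± 0.08, adjusted p = 1.3e-05) was also lower.

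Kif3b (-0.61 ± 0.22, adjusted p = 0.0235), Kif3c (-0.37 ± 0.12, adjusted p = 0.0105) and Kif5b (-0.25 ± 0.08, adjusted p = 0.0151) were called lower as deposited. Centring each array on its 75th percentile ended these calls and left 5 lower. The Kif3b call was also lost without the first (adjusted p = 0.0603) or the third (0.169) sensitive rapamycin array or the third resistant array (0.104). For Kif3c it was lost without the third resistant array (0.0541), and for Kif5b without the first sensitive rapamycin array (0.0658) or the first (0.0828) or the second (0.0509) resistant array. All 4 Kif3b probe sets were called lower, at -0.60 to -1.08. Kif21b, a neuronal kinesin that restrains microtubule growth, was higher, with 195, 186 and 175 against 98.9, 123 and 136 (0.58 ± 0.17, adjusted p = 0.00597). Kif13a was higher by 0.51 ± 0.15 (adjusted p = 0.00611), or by -0.0026 when its probe sets were averaged (adjusted p = 0.994). Of the 5 tested other kinesins 3 were called higher, against 26.4% of all genes. They were Kif7, Kif24 (0.86 ± 0.34, adjusted p = 0.0413) and Kif2a (0.24 ± 0.10, adjusted p = 0.0498). Kif24 and Kif2a each lost the call in 8 or more of 18 settings. For Kif24 these included each resistant array left out (adjusted p = 0.0615 to 0.12) and the first (0.081) or the third (0.146) sensitive rapamycin array left out. For Kif2a they included the first (0.0526) or the second (0.054) DMSO array, the first (0.0954) or the third (0.189) sensitive rapamycin array and the first (0.275) or the second (0.0716) resistant array left out. The Kif2a probe sets not used differed: 0.90 (adjusted p = 0.000661), 0.40 (0.00582), 0.13 (0.402) and, for a dim one with a mean of 28.4, -0.40 (0.447).

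Genes that work with the mitotic kinesins mostly changed the same way. Of 19 tested spindle and midzone partners 16 fell and 1 rose in sensitive rapamycin cells, against 15.2% and 20.4% of all genes, with a median of -2.09, led by Aurka (-2.76 ± 0.07), the passenger complex scaffold Incenp (-2.66 ± 0.08) and survivin, Birc5 (-2.65 ± 0.11). Cenpe, a kinesin-7 whose symbol falls outside the family pattern, fell by 1.85 on the log2 scale (adjusted p = 2.52e-10), within the range of the mitotic kinesins. Racgap1 (-2.03 ± 0.08) and Prc1 (-1.95 ± 0.11), the partners of Kif23 and Kif4, fell too. The exceptions were Numa1, which anchors spindle poles and rose (0.51 ± 0.08, adjusted p = 7.98e-05), and Ckap5 (-0.16, adjusted p = 0.123) and Cit (-0.24, adjusted p = 0.318), which were not called. Against DMSO cells the resistant line had 8 of 19 higher and 1 lower (median 0.15), against 25.9% and 25.8% of all genes, led by Tacc3 (1.12 ± 0.14), Spag5 (0.62 ± 0.11) and Cdca8 (0.47 ± 0.07). Against sensitive rapamycin cells 17 were higher and 1 lower (median 2.21), against 26.4% and 30.1% of all genes. Prc1 showed no call in the resistant line against DMSO cells (0.01, adjusted p = 0.936), where its partner Kif4 was lower.

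Regulators of mitotic transcription fell in 8 of 13 tested members and rose in 1 in sensitive rapamycin cells (median -0.48), against 15.2% and 20.4% of all genes. The largest changes were in Mybl2 (-1.89 ± 0.18), the MuvB subunit Lin54 (-1.79 ± 0.13) and Foxm1 (-1.73 ± 0.20), and Rbl2, which encodes the repressor p130, rose by 0.29 ± 0.10 (adjusted p = 0.0282). In the resistant line against DMSO cells 5 were higher and 2 lower, against 25.9% and 25.8% of all genes, with E2f4 at 0.93 ± 0.17, Rbl2 at -0.64 ± 0.10 and Nfya at 0.63 ± 0.09. Against sensitive rapamycin cells 11 were higher and 1 lower, against 26.4% and 30.1% of all genes, led by Mybl2 (2.45 ± 0.18), Lin9 (1.57 ± 0.26) and Foxm1 (1.42 ± 0.20).

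The partners of transport kinesins were mixed. Of 20 tested light chains, adaptors and cargo receptors 6 rose and 1 fell in sensitive rapamycin cells (median 0.11), against 20.4% and 15.2% of all genes. The scaffold gene Mapk8ip1 (1.23 ± 0.32) and the light chain Klc4 (0.81 ± 0.16) rose and Mapk8ip2 fell (-1.41 ± 0.45). Mapk8ip1 had DMSO signals of 51.3, 105 and 22.3, the lowest on the third DMSO array. Its resistant signals of 100, 118 and 129 overlapped these. Mapk8ip2 had 73.7, 41.9 and 111 in DMSO cells against 53.8, 7.51 and 5.54 in sensitive rapamycin cells, with overlapping groups and values near background. In the resistant line against DMSO cells 1 rose, Mapk8ip1 (0.95 ± 0.32), and 4 fell, among them Kifbp, a binding protein that holds several kinesins off microtubules (-0.91 ± 0.11), and Spag9 (-0.39 ± 0.08). Of all genes 25.9% rose and 25.8% fell there, so neither count exceeded the background. Against sensitive rapamycin cells 8 of 20 were lower and 2 higher (median -0.22), against 30.1% and 26.4% of all genes, with Kifbp at -1.41 ± 0.11, the cargo protein Kidins220 at -1.16 ± 0.11 and Klc4 at -1.07 ± 0.16.

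Dynein and dynactin, which carry cargo the other way along microtubules, rose in 10 of 24 tested members and fell in 3 with rapamycin in sensitive cells (median 0.23), against 20.4% and 15.2% of all genes. Dync1h1, the dynein heavy chain, rose from a mean of 360.3 to 1162 (1.62 ± 0.14, adjusted p = 6.53e-08), and the adaptor Hook3 rose by 0.95 ± 0.15. Spdl1, which recruits dynein to kinetochores in mitosis, fell (-2.25 ± 0.14). In the resistant line against DMSO cells 10 fell and 4 rose (median -0.21), against 25.8% and 25.9% of all genes, with Hook2 at 1.71 ± 0.30, Dynlt3 at -1.51 ± 0.08 and Ndel1 at -1.17 ± 0.09. Against sensitive rapamycin cells 13 were lower and 6 higher, against 30.1% and 26.4% of all genes, with Dynlt3 at -1.93 ± 0.08, Spdl1 at 1.88 ± 0.14 and Hook2 at 1.33 ± 0.30.

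Tubulins form the track that kinesins walk on. Of 13 tested tubulin genes 5 fell and 1 rose in sensitive rapamycin cells (median -0.30), against 15.2% and 20.4% of all genes, with the beta chain Tubb6 (-1.54 ± 0.08), the centriole tubulin Tube1 (-1.45 ± 0.19) and gamma tubulin, Tubg1 (-1.41 ± 0.07), at the front. In the resistant line against DMSO cells 7 fell and none rose, against 25.8% and 25.9% of all genes, led by Tubb2a (-2.07 ± 0.11), Tubb6 and Tubb2b (-0.65 ± 0.12). Against sensitive rapamycin cells 5 were higher and 4 lower, against 26.4% and 30.1% of all genes, with Tubb2a at -2.02 ± 0.11, Tube1 at 1.76 ± 0.19 and Tubg1 at 1.28 ± 0.07.

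**Figure D5:**
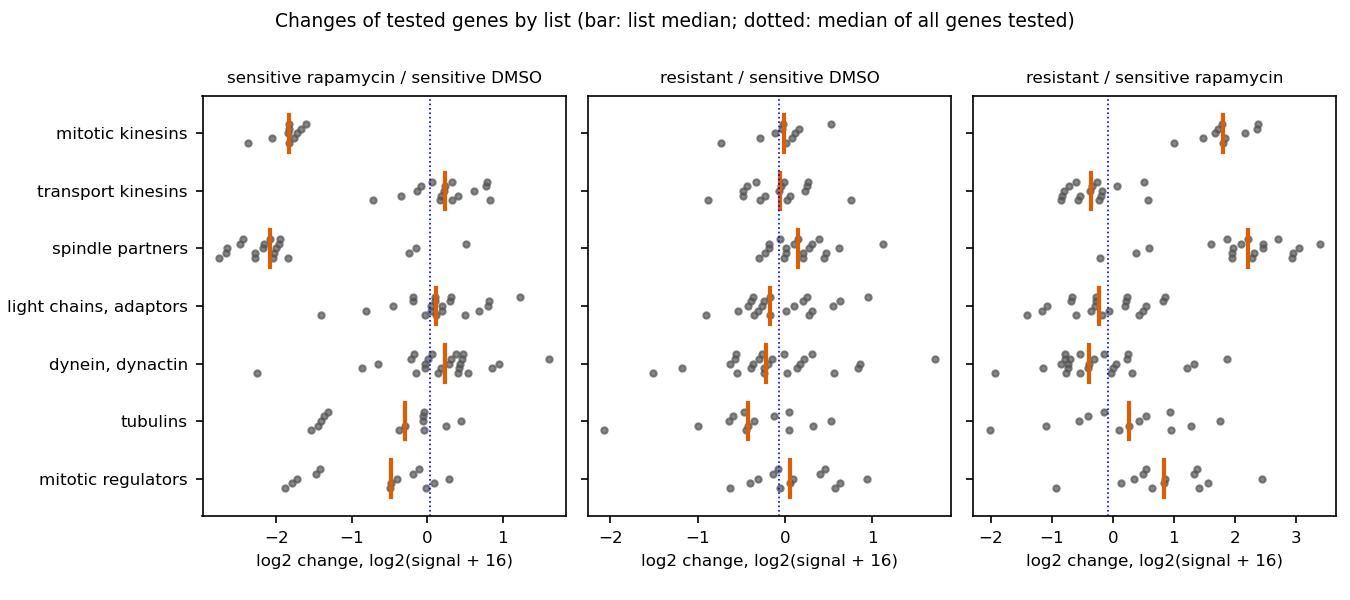
Log2 change of each tested gene in 7 lists (points), with the list median (bar) and the median of all 12715 genes (dotted line), in 3 comparisons. Mitotic kinesins and spindle partners have medians of -1.83 and -2.09 in the first panel and 1.80 and 2.21 in the third. Regulators of mitotic transcription have medians of -0.48 and 0.85 in those panels. There every list except the mitotic kinesins holds genes on both sides of 0.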

How the data were processed

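The values are the deposited microarray intensity signals of the Mouse 430 2.0 array, 1 per probe set and array, on a linear scale. The authors made them with GCOS 1.4, per the submitters' processing notes; the algorithm that summarised probes is not given in the sources used here. In the values themselves, the mean after trimming 2% at each end was 250.0 on every array. Signals were analysed as log2(signal + 16). Control probe sets and those with several or no gene symbols were left out, the brightest probe set per gene was kept, and genes with a mean under the 40th percentile of all probe sets, near a signal of 22.2, were not tested. All 12715 remaining genes and the 3 groups of 3 arrays were fitted together with limma 3.58.1 in R 4.3.3 (eBayes with a trend), and adjusted p-values are Benjamini-Hochberg over all of them; ± after a log2 change is the SE. Other probe sets of a gene were fitted separately with all probe sets. The code was tested on simulated data. Named with values were all mitotic kinesins, other kinesins called with a log2 change of at least 0.5, and up to 3 called genes per partner list and comparison with the largest changes. Other kinesins with values were named after their values were seen. So were Kifap3, Cenpe, Racgap1, Prc1, Numa1, Ckap5, Cit, Rbl2 in sensitive cells and the muscle markers Actg2, Chrna1, Myog and Ckm. The members and lists were chosen with earlier results of these data known. The 3 comparisons share groups and are not independent. Alternatives covered the pseudocount, filter, scaling, probe set rule, variance model, replicate block and each array left out. Replicate numbers did not pair the samples. The number of arrays limits the precision. Protein sequences were not analysed here.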

Additional observations from a re-analysis of the deposited data

How the results depend on the processing

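Over 18 alternatives per comparison, all 10 tested mitotic kinesins kept their direction and call in sensitive rapamycin cells against DMSO cells and in resistant against sensitive rapamycin cells. Against DMSO cells in the resistant line, 177 of 180 gene values kept theirs. The small transport counts moved more. In sensitive cells 1 transport kinesin was lower with no variance trend (Kif21b), and 0 to 1 with an array left out. For resistant against DMSO cells, centring on the 75th percentile gave 1 mitotic gene lower and 2 transport genes higher, quantile normalization 2 transport genes higher, the 2-group fit 2, and the mean of probe sets 0 mitotic and 0 transport genes higher. With an array left out, 1 to 2 mitotic genes were lower, 1 to 3 transport genes higher and 2 to 4 lower. For resistant against sensitive rapamycin cells, centring left 5 transport genes lower, leaving out an array 6 to 9, and the mean of probe sets 1 higher, with Kif13a turned to -0.0026 (-0.00258). With the replicate block 4382, 6448 and 7100 genes were called, mitotic counts were as before, and Kif3c in sensitive cells (adjusted p = 0.0509) and Kif2a between the rapamycin groups (adjusted p = 0.0517) lost their calls; 0 of 9 arrays correlated best with their own number. The cause of these differences was not tested. Signals near background limit Kif14, Kif15, Kif17, Kifc2, Kif6, the partner gene Mapk8ip2 and the members below the filter.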
